A study of Mus musculus with 12 samples.

Results

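The long intergenic RNAs described here are 196 of the 27942 genes in the deposited expression tables of C2C12 cells. They were chosen by level: a gene typed as lincRNA that reached 1 FPKM (fragments scaled to gene length and to library size) in 3 libraries or more, out of 6. H19, Malat1, Neat1, the imprinted RNAs, the ribosomal-RNA-like loci AY036118 and Gm42418, and the host transcripts named Snhg or Mir...hg had been left out by name. That removed 10 of 206 expressed lincRNA genes. The tables hold 5136 lincRNA genes in all. The rule used the levels over all 6 libraries and not the treatment labels, so the levels are a description. The comparison between treatments was tested gene by gene. The list was chosen with earlier results of these data known, so the list as a whole has no p-value.

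C2C12 is an established mouse myoblast line whose cells leave the cell cycle and fuse into myotubes when serum is lowered. Cells were grown to 80% density with 10% fetal bovine serum and moved to 2% horse serum, in both groups in high-glucose DMEM with penicillin and streptomycin. Total RNA was taken after 7 days without addition (control, 3 libraries) or with 25 µmol/L 4-octyl itaconate (OI, 3 libraries), an itaconate ester that enters cells and switches on NRF2, the transcription factor of the antioxidant response. The series asks how OI affects myogenic differentiation. All libraries come from 1 cell line, and no label says whether replicates were separate cultures, so p-values measure only the spread between these libraries.

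Long intergenic RNAs are transcripts without a recognised protein that lie between coding genes. Some act on the chromosome they are made from, as Xist does on the inactive X, some bind proteins or miRNAs in the cytoplasm, and some are the precursors of miRNAs. A well described one in muscle cells is linc-MD1, which is made from the locus of miR-206 and miR-133b, miRNAs of differentiating muscle. Many others start beside a coding gene on the opposite strand and share its promoter.

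Among the 196, 3 changed past an adjusted p of 0.05 in limma, 1 of them higher and 2 lower with OI. Of all 1737 genes tested, 2.76% passed, 1.15% higher and 1.61% lower. An unadjusted p under 0.05 was reached by 46 members (23.5%), 16 higher and 30 lower, against 17.8% of all genes tested (7.77% higher and 10% lower). AC139845.1 on chromosome 15 and Gm48488 beside Gas1 were lower with OI, and Gm26735, which lies over Sox4, was higher. The OI libraries lay wholly outside the range of the control libraries for 64 members (32.7%), against 23.6% of all genes tested. Of these 64, 41 were lower and 23 higher with OI. That is 20.9% and 11.7% of the members, against 12.5% and 11.1% of all genes tested. Among the 310 protein-coding genes tested the share without overlap was 32.9% (14.8% lower and 18.1% higher), near that of the members. It was 23.7% for 334 antisense genes and 18.3% for 393 processed pseudogenes. The mean log2 level was lower with OI for 130 members and higher for 66, and after quantile scaling lower for 113 and higher for 83. The median log2 fold change, on the log2(FPKM + 1) scale, was -0.07 for the members and -0.02 for all genes tested, with quartiles of -0.21 and 0.06 for the members. Only 2 members differed by 2-fold or more on that scale, and both rest on libraries that stand apart (given below). The plot of level against change shows most members within a narrow band around 0. Members that met the level rule only through the control libraries had to be lower with OI. These are 2810414N06Rik, AC162302.1 and Gm13264, and none met it only through OI. Without these 3, groups did not overlap for 61 of 193 members (31.6%).

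**Figure D1:**
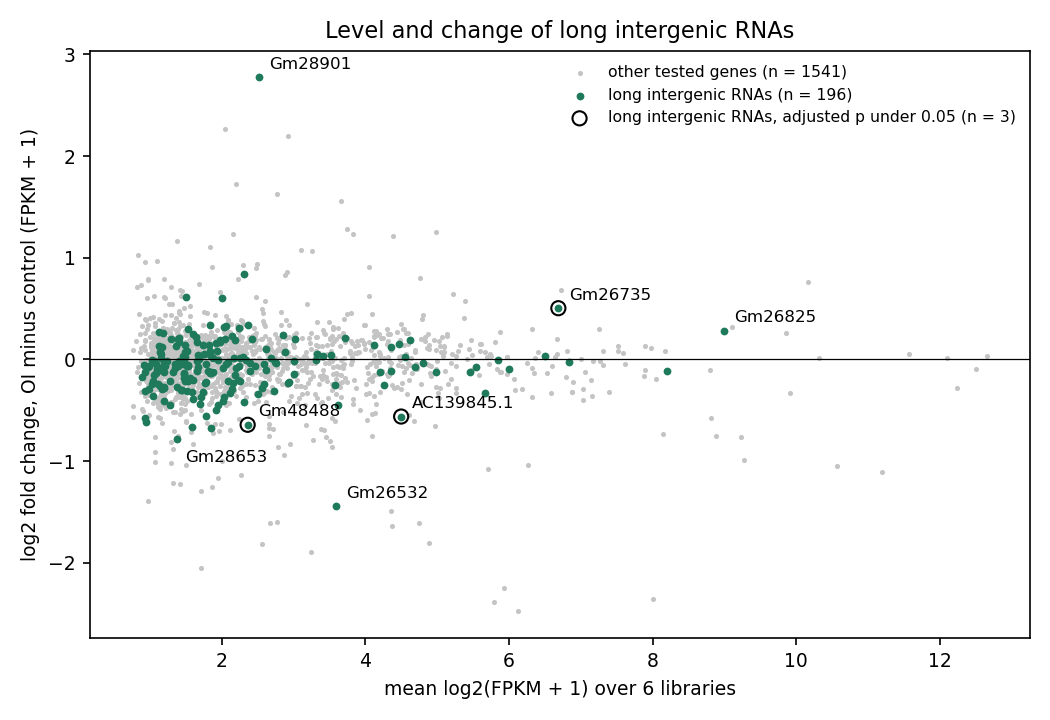
Each point is a gene: the horizontal axis is its mean log2(FPKM + 1) over 6 libraries and the vertical axis its log2 fold change, OI minus control. Green points are the 196 long intergenic RNAs, grey points the other 1541 genes tested, and the 3 circled members passed an adjusted p of 0.05; Gm28901 (high in 2 OI libraries) and Gm26532 (low in 1 OI library) lie farthest from 0.

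The sequences below identify members described later: the miRNAs of Gm28653 and 6720427I07Rik, the 2 miRNA hosts with the smallest p-values, neither past the adjusted threshold; a stretch of the called RNA that shares its exons with no other gene; and stretches in which a member differs from a coding transcript by a single base. Mature miRNAs are from RefSeq (GRCm38.p6), with bases 2 to 8, the seed, in capitals. The miRNAs encoded within Gm28653 and 6720427I07Rik are the following.

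miR-206-3p: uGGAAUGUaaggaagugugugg
miR-206-5p: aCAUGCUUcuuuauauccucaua
miR-133b-3p: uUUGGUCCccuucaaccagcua
miR-133b-5p: gCUGGUCAaacggaaccaaguc
let-7d-5p: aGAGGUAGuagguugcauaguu
let-7d-3p: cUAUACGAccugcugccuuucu

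No seed is shared among these 6. The first 120 of the 1334 bases of the AC139845.1 transcript, from GENCODE M21 (GRCm38, which is mm10), are all in lower case because no part is singled out.

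AC139845.1: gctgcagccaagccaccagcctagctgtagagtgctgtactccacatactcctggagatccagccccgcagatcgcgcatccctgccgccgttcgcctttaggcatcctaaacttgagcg

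Gm26825 and Gm28901 are near-copies, on the reverse strand, of the coding transcripts of Hspa8, a constitutive cytosolic chaperone, and Hnrnpf, a splicing regulator. In each pair below, the reverse complement of the member stands above the coding transcript, over 60 bases counted from the first base of the start codon (87 to 146 for Hspa8 and 819 to 878 for Hnrnpf). The base that differs is in capitals.

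Gm26825: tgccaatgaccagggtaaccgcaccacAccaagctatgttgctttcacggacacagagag
Hspa8: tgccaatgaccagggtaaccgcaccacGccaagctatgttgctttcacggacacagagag
Gm28901: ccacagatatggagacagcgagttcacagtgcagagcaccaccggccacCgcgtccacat
Hnrnpf: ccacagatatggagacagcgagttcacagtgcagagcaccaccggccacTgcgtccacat

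Over the aligned coding bases, Gm26825 differs from Hspa8 at 5 of 1852 and Gm28901 from Hnrnpf at 2 of 410. Reads that cover none of these positions match both genes equally.

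AC139845.1 (ENSMUSG00000115317, chr15:32778904-32796006, mm10) is the called member with no other gene on its exons. It has 4 exons, and the nearest coding gene, the semaphorin gene Sema5a, is 82563 bases away. Its level was 25.6, 26.8 and 27.0 FPKM in the control libraries and 18.9, 16.1 and 18.0 FPKM with OI. The mean fell from 26.5 ± 0.77 to 17.7 ± 1.5 FPKM (SD, n = 3 each), and every OI library was below every control library. The log2 fold change was -0.56 ± 0.08 (SE; limma adjusted p = 0.0267).

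Gm26735 (ENSMUSG00000097461, chr13:28943048-28951671) lies on the strand opposite Sox4, which encodes an HMG-box transcription factor of progenitor cells. Of its 2649 exonic bases, 2616 are also exonic in Sox4. Control libraries had 89.6, 88.8 and 78.9 FPKM, and OI libraries 124, 124 and 118 FPKM. The mean rose from 85.8 ± 6.0 to 122 ± 3.5 FPKM (SD, n = 3 each), with no overlap between the groups. The log2 fold change was 0.50 ± 0.08 (SE; limma adjusted p = 0.0267). No source used here gives the strand setting of the counting, so reads of Gm26735 and of Sox4 cannot be told apart.

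Gm48488 (ENSMUSG00000114433, chr13:60176682-60182862) starts on the strand opposite Gas1, a cell-surface hedgehog co-receptor linked to growth arrest, and shares 589 of its 5345 exonic bases with it. Its level was 5.03, 5.45 and 5.81 FPKM in control and 2.73, 3.01 and 3.66 FPKM with OI. The mean fell from 5.43 ± 0.39 to 3.13 ± 0.47 FPKM (SD, n = 3 each), again with no overlap. The log2 fold change was -0.64 ± 0.11 (SE; limma adjusted p = 0.0406). The caveat on strand holds here for the bases shared with Gas1. Values of Sox4, Gas1 and the other coding neighbours named below were not analysed here.

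The 3 calls were mostly lost when 1 library was left out, which also makes 1 group smaller. Leaving out 1 library at a time, the limma adjusted p was 0.0415 to 0.109 for AC139845.1, which stayed past the threshold only without OI replicate 1. It was 0.0676 to 0.107 for Gm26735 and 0.0516 to 0.147 for Gm48488, past the threshold in no case.

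**Figure D2:**
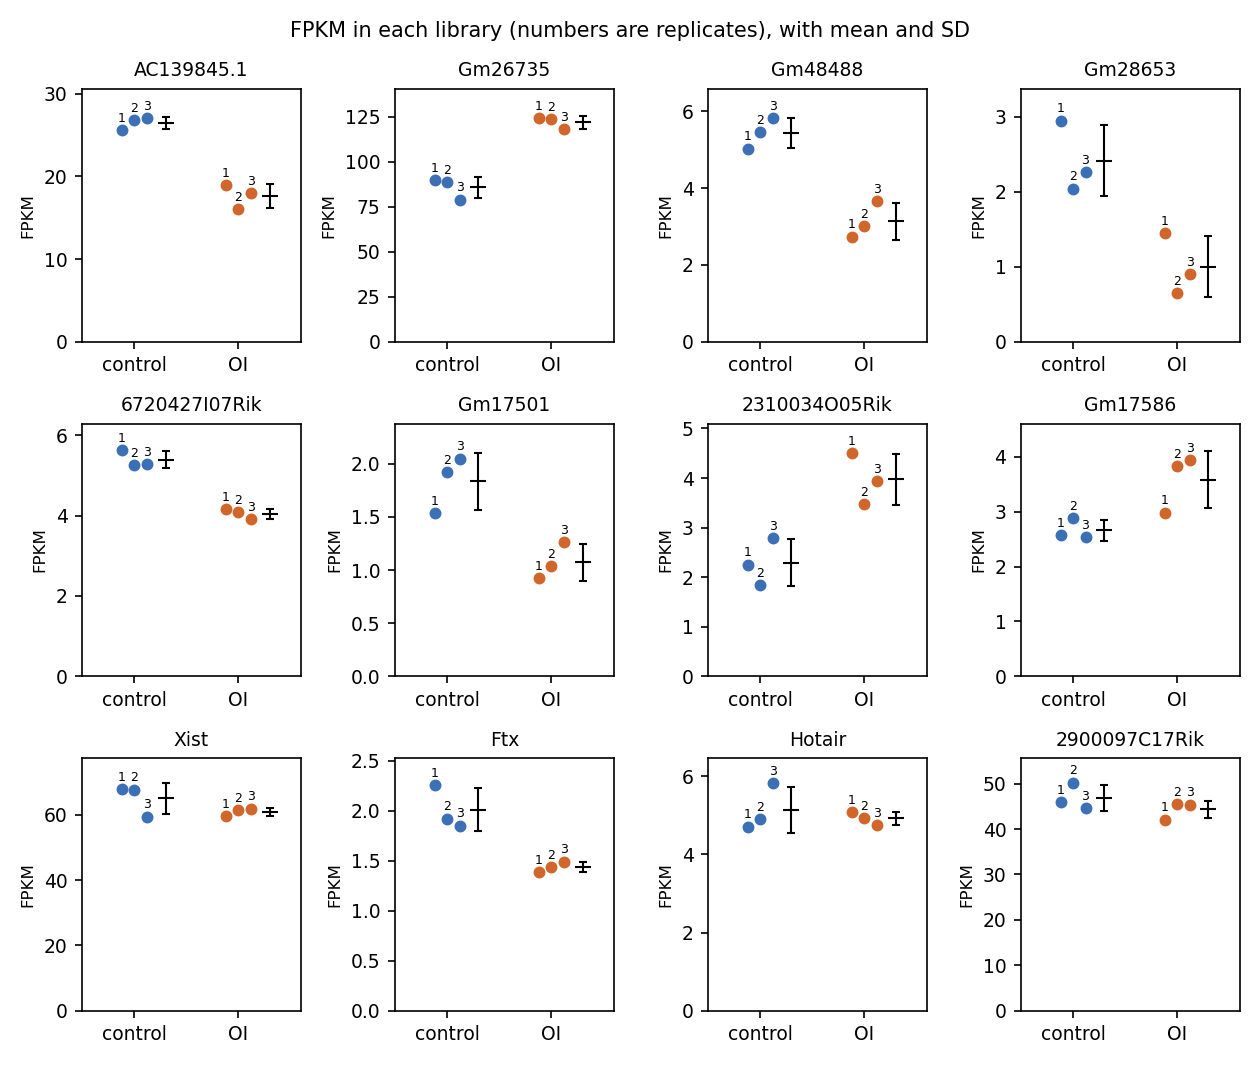
FPKM of 12 long intergenic RNAs in the 3 control (blue) and 3 OI (orange) libraries, numbered by replicate, with the mean and SD at the right of each group; each vertical axis starts at 0 and has its own scale. AC139845.1, Gm48488, Gm28653, 6720427I07Rik, Gm17501 and Ftx have every OI library below every control library, Gm26735, 2310034O05Rik and Gm17586 every OI library above, and Xist, Hotair and 2900097C17Rik overlap.

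Other members with lower levels in the OI libraries hold miRNAs, as printed above. Gm28653 (chr1:20669882-20684298), the annotated gene at the linc-MD1 locus, has miR-206 and miR-133b in its transcribed span. It stood at 2.95, 2.04 and 2.26 FPKM in control and at 1.45, 0.65 and 0.90 FPKM with OI. The highest OI library was below the lowest control library. Its log2 fold change of -0.78 ± 0.18 did not pass the test (SE; limma adjusted p = 0.101). 6720427I07Rik (chr13:48535523-48537822 in the files, with a longer span in GENCODE M21) carries the exonic miRNA let-7d, of the let-7 family known for repressing growth and progenitor genes. It had 5.64, 5.26 and 5.29 FPKM in control and 4.16, 4.09 and 3.91 FPKM with OI. Its libraries were close together within each group and did not overlap, and the log2 fold change was -0.34 ± 0.07 (SE; limma adjusted p = 0.0884). These are levels of the host transcripts, and mature miRNAs were not measured.

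In bulk RNA, fewer cells of a type and less RNA per cell cannot be told apart, and this touches Gm28653 first. Of 25 skeletal muscle markers listed, the tables analysed hold 2, and both changed. Tnnc1, slow and cardiac troponin C, was at 140, 110 and 128 FPKM in control and 24.7, 23.0 and 21.9 FPKM with OI (log2 fold change -2.39 ± 0.11, limma adjusted p = 0.000188). Klhl33 was at 4.83, 4.41 and 4.84 FPKM in control and 1.79, 1.94 and 1.79 FPKM with OI (log2 fold change -1.0 ± 0.08, limma adjusted p = 0.00229). Their part in the lower values of Gm28653 and other members was not tested. Of the listed 6 fibroblast, 5 adipocyte and 5 osteoblast markers the tables hold 0, and of 4 macrophage markers they hold 1, Itgam, listed at 0 in every library.

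The other miRNA hosts among the members were 4. Ftx, an RNA of the X-inactivation centre with miR-421 and miR-374b in an intron, had 2.26, 1.92 and 1.85 FPKM in control and 1.39, 1.44 and 1.49 FPKM with OI. The groups did not overlap, but the log2 fold change of -0.30 ± 0.09 did not pass (SE; limma adjusted p = 0.171). E130102H24Rik, with miR-101a in an exon, was listed at 0 in control replicate 2 and at 5.47 to 6.24 FPKM in the other 5 libraries. Gm27028, with miR-30c, was listed at 0 in control replicate 3 and at 0.69 to 1.72 FPKM in the others. For these last 2 members 1 control library decides the fold change. 2900076A07Rik, with miR-1839 in an exon, was at 2.17 to 2.34 FPKM in control and 1.91 to 2.13 FPKM with OI (log2 fold change -0.11, limma adjusted p = 0.541).

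The known long RNAs among the members were 10, from a list of 80 names of which 21 had been tested in all. With limma 0 passed the adjusted threshold, 4 had an unadjusted p under 0.05, and limma voom on recovered reads also called 0. The mean log2 level was lower with OI for 9 and higher for 1, Gm26917, whose sign rests on control replicate 1 (given below). For 4 of the 10 (Gm28653, Ftx, Bvht and Epb41l4aos) every OI library was below every control library, as for 12.5% of all genes tested, and these are the 4 with an unadjusted p under 0.05, which 17.8% of all genes tested reached. Bvht, named for its part in cardiac lineage commitment, had 4.68, 4.59 and 4.96 FPKM in control and 3.56, 2.64 and 3.73 FPKM with OI (log2 fold change -0.42 ± 0.12, limma adjusted p = 0.143). Epb41l4aos had 15.5, 12.3 and 12.5 FPKM in control and 9.99, 8.98 and 9.60 FPKM with OI (log2 fold change -0.45 ± 0.11, limma adjusted p = 0.102). Both are low to moderate in level and were separated by group, without passing.

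The more abundant known RNAs overlapped between groups. Xist, which coats the inactive X, was at 67.9, 67.7 and 59.4 FPKM in control and 59.6, 61.4 and 61.9 FPKM with OI. 2900097C17Rik (Norad), a cytoplasmic RNA that binds Pumilio proteins, was at 45.9, 50.2 and 44.6 FPKM in control and 42.1, 45.5 and 45.4 FPKM with OI. 1700020I14Rik (Cyrano), which directs decay of miR-7, was at 26.9, 28.3 and 26.3 FPKM in control and 25.5, 27.4 and 26.5 FPKM with OI. In all 3 some OI libraries were above some control libraries, and the log2 fold changes were -0.09 ± 0.08, -0.08 ± 0.08 and -0.04 ± 0.07 (SE), which turned to small positive values after quantile scaling. Hotair, transcribed from the HoxC cluster, ranged from 4.71 to 5.82 FPKM in control and from 4.76 to 5.09 FPKM with OI, inside the control range. Trp53cor1 (lincRNA-p21), a p53 target beside Cdkn1a, ranged from 1.67 to 2.15 FPKM in control and from 1.46 to 2.07 FPKM with OI. Hotair and Trp53cor1 had log2 fold changes of -0.05 ± 0.09 and -0.07 ± 0.13 (SE).

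Xist stayed between 59.4 and 67.9 FPKM while records on its other strand switched between libraries. Tsix, the antisense RNA that shares 1980 exonic bases with Xist, had 14.6, 0.01 and 9.46 FPKM in control and 0.03, 11.6 and 10.6 FPKM with OI. Gm26992, a gene typed as coding on the same strand as Tsix, had 0, 39.1 and 0 FPKM in control and 31.9, 0 and 0 FPKM with OI. The libraries with a level for Gm26992, control replicate 2 and OI replicate 1, were the same ones in which Tsix was near 0, and this division does not follow the treatment.

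Of the members not called, the falls with the smallest unadjusted p and no overlap lay in varied positions. Gm26719, opposite Cped1, had 3.07, 3.82 and 3.71 FPKM in control and 1.96, 2.15 and 2.49 FPKM with OI (log2 fold change -0.50 ± 0.11, limma adjusted p = 0.0938). Gm17501 starts 331 bases from Ccn1, a secreted matrix protein known as a target of YAP, and had 1.54, 1.92 and 2.05 FPKM in control and 0.92, 1.04 and 1.26 FPKM with OI (log2 fold change -0.45 ± 0.12, limma adjusted p = 0.126). AC125328.1, with no gene on its exons, had 2.17, 2.49 and 2.81 FPKM in control and 1.68, 1.63 and 1.65 FPKM with OI (log2 fold change -0.39 ± 0.10, limma adjusted p = 0.114). For all of these the OI libraries were the 3 lowest. With limma voom on recovered reads, Gm26719 and 6720427I07Rik passed (adjusted p = 0.0380 and 0.0417). Gm6093 had 2.2, 2.56 and 3.70 FPKM in control and 1.27, 1.76 and 1.13 FPKM with OI (log2 fold change -0.67 ± 0.18, limma adjusted p = 0.132). AC162302.1, which met the level rule only through its control values, had 1.6, 1.03 and 1.57 FPKM in control and 0.55, 0.38 and 0.76 FPKM with OI.

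The corresponding rises began with 2310034O05Rik (chr5:100210692-100218049), which shares its exons with no other gene. It had 2.25, 1.83 and 2.78 FPKM in control and 4.50, 3.47 and 3.94 FPKM with OI (log2 fold change 0.60 ± 0.14, limma adjusted p = 0.101). Gm7160, which starts 124 bases from Zcchc2, had 0.87, 1.27 and 1.86 FPKM in control and 2.83, 1.95 and 2.83 FPKM with OI (log2 fold change 0.61 ± 0.19, limma adjusted p = 0.180). Gm17586 starts 168 bases from Mafg, a small Maf protein that pairs with NRF2 on DNA, and had 2.57, 2.89 and 2.53 FPKM in control and 2.98, 3.83 and 3.94 FPKM with OI (log2 fold change 0.32 ± 0.11, limma adjusted p = 0.230). In these 3 the OI libraries were the 3 highest, and none passed. E430024I08Rik and Gm46430 are both on chromosome 13 (chr13:74434781-74463429 and chr13:74579358-74617945), and Gm47469, a member between them (chr13:74553910-74564256), had overlapping groups and a log2 fold change of 0.07. E430024I08Rik had 2.34, 2.76 and 3.10 FPKM in control and 3.52, 4.20 and 3.30 FPKM with OI (limma adjusted p = 0.240). Gm46430 had 2.00, 1.69 and 1.71 FPKM in control and 2.30, 2.35 and 2.31 FPKM with OI (limma adjusted p = 0.230).

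The other named rises share exons with coding genes on the opposite strand. Gm26540 has all its 1310 exonic bases inside exons of Dennd5b and was at 5.22 to 6.25 FPKM in control and 6.65 to 7.03 FPKM with OI. Gm26582 shares 2050 of 3135 exonic bases with G3bp2, a stress granule protein, and was at 21.7 to 22.5 FPKM in control and 23.7 to 26.6 FPKM with OI. B230217O12Rik shares 96 bases with Fam160b1 and was at 2.03 to 2.34 FPKM in control and 2.39 to 3.39 FPKM with OI. Their log2 fold changes were 0.24 ± 0.09, 0.19 ± 0.07 and 0.34 ± 0.13 (SE), and none passed.

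Most members were low. The median level over all libraries was 2.56 FPKM, beside 2.82 FPKM for all genes tested, with quartiles of 1.65 and 4.60 FPKM. Only 28 members averaged above 10 FPKM, and 76 averaged below 2 FPKM. The 10 highest members made up 61.9% to 65.8% of the summed FPKM of all members in each library. Of the 196 members, 152 reached 1 FPKM in every library, 35 in 4 or 5 libraries and 9 in 3. Just inside the rule, by the third-highest library, were Gm27028 (1.01 FPKM), Ino80dos (1.02 FPKM) and AC163664.1 (1.02 FPKM). Just outside were A430046D13Rik (0.982 FPKM), AC123724.1 (0.986 FPKM) and AC163667.1 (0.990 FPKM).

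Of the 10 highest members, 5 share exons with a coding gene. Gm26825 led with a mean of 511 FPKM. It was at 446, 463 and 473 FPKM in control and 555, 584 and 544 FPKM with OI, without overlap (log2 fold change 0.28 ± 0.07, limma adjusted p = 0.101). It passed with limma voom on recovered reads (adjusted p = 0.0215). On the same bases lies Gm15459, a processed pseudogene, at 480, 495 and 496 FPKM in control and 599, 646 and 594 FPKM with OI. The 2 records share 1860 exonic bases on opposite strands. The strand setting is not known, so they cannot be taken as separate measurements. Gm26825 matches Hspa8 as printed above. Next came Gm26619 (opposite Gm10260, mean 297 FPKM), Gm17275 (opposite H3f3a, which encodes histone H3.3, mean 114 FPKM), Gm26735, Gm26917 and Xist. Gm47015 (mean 56.9 FPKM), 3300005D01Rik (50.5 FPKM), 2900097C17Rik and Gm29233 (opposite Thbs1, a matrix protein, 43.1 FPKM) closed the order. Gm26825 and Gm26619 stood clear of each other and of the rest in every library. From Gm17275 down, the range of each member over the 6 libraries overlapped that of the next. 3300005D01Rik, with no gene on its exons, was at 52.3, 56.6 and 60 FPKM in control and 39.1, 49.0 and 46 FPKM with OI (log2 fold change -0.33 ± 0.10, limma adjusted p = 0.184).

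The annotation places most expressed members close to coding genes. All 196 are in GENCODE M21, 185 at the same position. Of the members, 118 (60.2%) share exonic bases with another gene, against 13.0% of the 4904 lincRNA genes below the level rule that were matched. With a coding gene it was 77 members (39.3%) against 4.14%. A coding gene lay within 5 kb of, or over, 132 members (67.3%) against 20.4%. A coding gene started within 1 kb on the opposite strand of 35 members (17.9%) against 5.18%. Among the other 1532 genes tested that were matched, the shares were 51.6%, 43.9%, 80.0% and 19.1% in the same order, so nearness to coding genes is not particular to the members. The shares describe which genes reach 1 FPKM, and no strand setting is known by which a neighbour's reads could be left out. The median of exonic bases was 1887 for members, 979.5 for the 4904 lincRNA genes below the level rule and 922.5 for the other genes tested.

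By what else lies on their exons, the members fall into 4 classes. The 75 with nothing had a median of 1.93 FPKM, and groups did not overlap for 31 of them (41.3%), 20 lower and 11 higher. Of all genes tested it was 23.6%, 12.5% lower and 11.1% higher. The 20 include 2810414N06Rik, AC162302.1 and Gm13264, which met the level rule only through the control libraries and so had to be lower. For the 77 sharing exons with a coding gene the median was 3.16 FPKM and 22 (28.6%) did not overlap, 12 lower and 10 higher. For the 35 sharing exons only with a non-coding gene, 9 (25.7%) did not overlap, a share near that of all genes tested. All 9 were lower, where 12.5% of all genes tested were lower without overlap. For the 9 near-identical to a coding transcript elsewhere, 2 (22.2%) did not overlap, and both were higher (Gm26825, and AC131033.1, named after its values were seen, which matches Ahsa1, an activator of Hsp90). The median log2 fold changes were -0.12, -0.04, -0.07 and 0.11 in this order, beside -0.02 for all genes tested. By gene type, groups did not overlap for 23.7% of 334 antisense genes, 18.3% of 393 processed pseudogenes and 32.9% of 310 protein-coding genes. Members are not all separate, since some share exons with each other. AI480526 holds the shorter Gm38102 and 4932422M17Rik on chromosome 5, and the 3 had log2 fold changes of -0.13, -0.12 and -0.12.

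**Figure D3:**
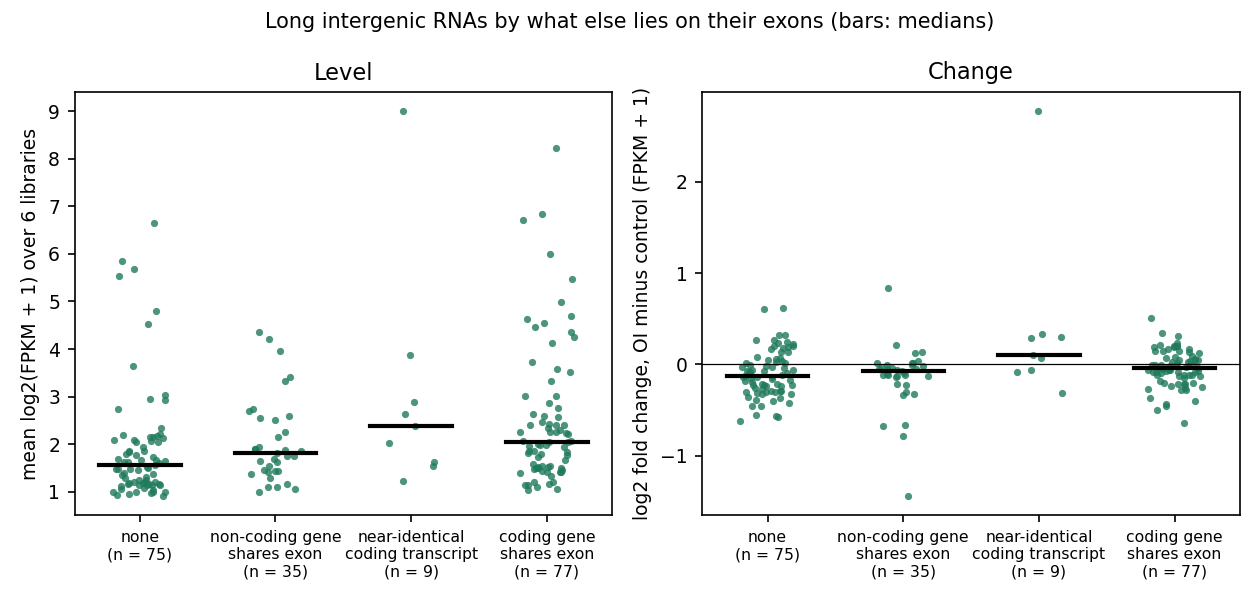
Mean log2(FPKM + 1) over 6 libraries (left) and log2 fold change, OI minus control (right), of each long intergenic RNA in 4 classes by what shares its exons; each point is a member, spread sideways for display, and bars are medians. Members with nothing on their exons have the lowest median level, and the median changes run from -0.12 to 0.11.

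Gm17501 and Gm17586 start back to back with Ccn1 and Mafg. They differed in direction, and the promoter of each overlaps the stretch between the 2 starts, which is why both are printed. RefSeq promoters (GRCm38.p6, 250 bases before to 50 after a start) were found for 64 members. They were searched on both strands for TGACNNNGC, the core of the antioxidant response element that NRF2 and small Maf proteins bind, CAGCTG, an E-box of myogenic factors, and GGAATG, the MCAT box of TEAD factors. No motif contains another. TGACNNNGC was in 8 of the 64 (12.5%) and in 12.4% of 32851 promoters. CAGCTG was in 11 (17.2%) against 16.3%, and GGAATG in 14 (21.9%) against 14.7%. The units differ: a member counts if any of its promoters matched (70 promoters for the 64), while the 32851 promoters were counted singly. Members with several promoters thus had more chances of a match. The part of each promoter outside the coding neighbour is printed on the plus strand, with matches in capitals: chr3:145649982-145650126 for Gm17501 and chr11:120633601-120633799 for Gm17586. The printed stretch of Gm17586 runs past the start of that member in GENCODE M21, chr11:120633768.

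Gm17501: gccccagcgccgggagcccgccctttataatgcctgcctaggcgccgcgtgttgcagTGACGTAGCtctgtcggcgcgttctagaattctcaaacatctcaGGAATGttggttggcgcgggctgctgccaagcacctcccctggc
Gm17586: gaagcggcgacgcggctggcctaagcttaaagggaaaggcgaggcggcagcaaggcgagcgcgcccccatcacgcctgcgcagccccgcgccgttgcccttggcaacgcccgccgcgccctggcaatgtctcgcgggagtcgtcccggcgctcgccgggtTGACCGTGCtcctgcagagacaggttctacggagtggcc

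Gm17501 holds TGACGTAGC and GGAATG, and Gm17586 holds TGACCGTGC. A match is a string of letters and not a site. Among the 35 members with such a coding start, groups did not overlap for 12 (34.3%), of which 7 were lower and 5 higher. It was 32.3% for members without such a start and 23.6% for all genes tested, 12.5% lower and 11.1% higher. The 7 include 2810414N06Rik, which met the level rule only through control. Besides Gm48488, Gm17501, Gm7160 and Gm17586 the 12 include A330074K22Rik beside Gse1, at 2.47, 2.66 and 3.15 FPKM in control and 2.06, 1.81 and 1.81 FPKM with OI, and 2010320M18Rik beside Pik3r2, at 5.80, 6.79 and 6.64 FPKM in control and 4.57, 5.46 and 4.94 FPKM with OI. These last 2 were named after their values were seen, and neither passed (limma adjusted p = 0.136 and 0.180).

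The libraries held 24441000 to 36274000 reads or fragments each, as recovered from the step between values of genes with 1 exon, and members took 0.520% to 0.583% of them. The median member had 110 to 160 reads per library. Control replicate 1 stands apart: 23.9% of its reads fell in the genes of the tables, against 5.25% to 5.77% in the other libraries. It was the highest library for 60 members, where each other library was highest for 22 to 34. Its part in the members' lower means with OI was not tested beyond leaving it out, which moved their median log2 fold change from -0.07 to -0.05.

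For 5 members 1 library lay more than 1.5-fold (FPKM + 1) outside the other 5, as the plot of these members shows. Gm26532, which shares bases with Mir24-2, was at 0.51 FPKM in OI replicate 3 and at 14.9 to 20.3 FPKM in the others. Gm26917, beside the ribosomal-RNA-like loci on chromosome 17, was at 212 FPKM in control replicate 1 and at 55.2 to 95.1 FPKM in the others. With all libraries its log2 fold change was 0.03 ± 0.50, and without control replicate 1 it was 0.66 and past the threshold. E130102H24Rik and Gm27028 are given above. AC161763.1, 168 bases long, was at 5.11 FPKM in control replicate 1 and at 1.16 to 2.98 FPKM in the others.

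Gm28901, the near-copy of Hnrnpf, was divided within the OI group, and it is described because its values stood out. It was at 0.95, 1.31 and 1.34 FPKM in control and at 1.18, 36.6 and 40.0 FPKM with OI. OI replicate 1 lay within the control range, and the log2 fold change of 2.77 ± 1.1 did not pass (SE; limma adjusted p = 0.277). Without OI replicate 1 it passed. With 99.5% identity to Hnrnpf along the match, reads of the 2 genes are not separable by sequence over most of it. Gm28901 also shares 406 of its 474 exonic bases with Gm6430, a processed pseudogene on the opposite strand. The strand setting is not known, and the values of Gm6430 are not given here.

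**Figure D4:**
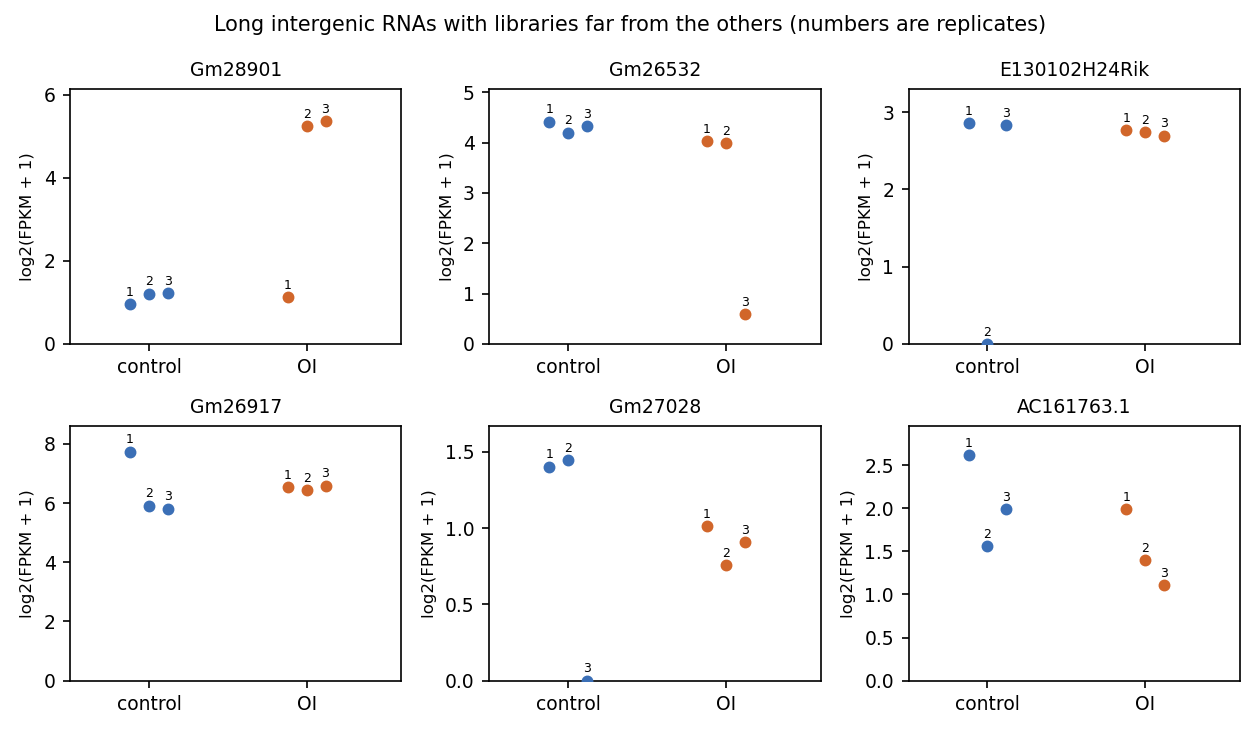
log2(FPKM + 1) of 6 long intergenic RNAs in the 3 control (blue) and 3 OI (orange) libraries, numbered by replicate; each vertical axis starts at 0. Gm28901 has 2 OI libraries far above the others, Gm26532, E130102H24Rik and Gm27028 have 1 library far below, and Gm26917 and AC161763.1 are highest in control replicate 1.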

How the data were processed

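RNA from 3 control and 3 OI samples was analysed; a second set of 3 control and 3 OI samples was not analysed here. The authors deposited FPKM per gene, made per the submitters' processing notes with cutadapt 2.7, HISAT2 2.1.0 and StringTie 1.3.3b on mm10. Strand setting and layout: not given in the sources used here. Genes with FPKM of 1 or more in at least 3 libraries (1737) were fitted with limma 3.58.1 (R 4.3.3) on log2(FPKM + 1), trend=TRUE, two-sided, p-values adjusted by Benjamini-Hochberg across these genes, threshold 0.05. This scale understates changes at low levels. Simulated data were used to test the fit. Exon sharing came from GENCODE M21, and near-identical matches from BLAST+ 2.17.0 (90% identity, 80% cover, E-value at most 1e-10). Named members were those called, up to 10 rises and 10 falls without overlap by smallest p, the 10 highest, known RNAs, 3 on each side of the level rule and 5 with 1 library apart. Members and lists were chosen with earlier results of these data known. Recovered read numbers are approximate: 76.9% to 78.5% of members' values were whole within 0.01. Tables used Python 3.11.15 and pandas 2.3.3. Alternatives were other pseudocounts, filters and scalings, limma settings, a replicate block, voom and leaving out each library.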

Additional observations from a re-analysis of the deposited data

How the results depend on the processing

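The 3 calls among the long intergenic RNAs were also made with pseudocounts of 0.1 and 5, median-of-ratios or quantile scaling, trend=FALSE and array weights. With limma and no filter 0 members passed (10948 genes tested, 44 members at an unadjusted p under 0.05), and with the replicate number as a block 0 passed (30 at an unadjusted p under 0.05, limma adjusted p = 0.138 for AC139845.1, 0.108 for Gm26735 and 0.102 for Gm48488). The labels do not say whether equal numbers mark paired samples. Same-numbered libraries correlated at 0.05, 0.14 and -0.08 in their deviations from the group means, and the other pairs at -0.14 to 0.08. With 3 libraries per group these values can neither show nor exclude pairing. With a filter at 5 FPKM or robust=TRUE 4 passed, Gm26825 being added, and with limma voom on recovered reads 6, which added Gm26825, 6720427I07Rik and Gm26719. Gm48488 met the filter at 5 FPKM only through its control libraries (5.03, 5.45 and 5.81 FPKM). Under that filter it had to be lower with OI, so its call there adds no support. Leaving out 1 library gave 0 to 2. The median log2 fold change of the members was -0.030 with a pseudocount of 5, -0.033 with a filter at 5 FPKM and -0.024 with quantile scaling. Of 643 comparisons of the 39 named members with an alternative, 593 kept direction and call, and 21 in 12 members changed sign. Quantile scaling gave 0.017 for 1700020I14Rik, 0.023 for 2900097C17Rik, 0.21 for Gm17275, 0.11 for Gm47015 and 0.11 for Xist, and median-of-ratios scaling 0.016 for Gm47015. Gm27028 was at 0.48 with a pseudocount of 0.1 and at 0.89 with voom. Without 1 library, the log2 fold change ranged from -0.21 to 0.078 for AC163664.1, -0.11 to 1.32 for E130102H24Rik, -0.065 to 0.0017 for Gm17275, -0.30 to 0.66 for Gm26917, -0.53 to 0.19 for Gm27028, -0.25 to 0.0031 for Gm29233, -0.060 to 0.043 for Gm47015, -0.098 to 0.029 for Hotair and -0.14 to 0.032 for Trp53cor1. The cause of these changes was not tested. The median member had 110 to 160 reads per library, and the size of change that this depth can show was not measured.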
